A study of Mus musculus with 32 samples.

Results

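The Reg genes encode small secreted C-type lectins of the gut and pancreas, and all 7 members with a probe were followed here through crypts and adenomas of the mouse small intestine. Members were taken by gene symbol from the array annotation as Reg1, Reg2, Reg3a, Reg3b, Reg3d, Reg3g and Reg4. They were read by 8 of the 45281 probes on the Illumina MouseWG-6 v2 beadchip, Reg3b by 2 probes and every other member by 1. The study asked how loss of the β-catenin co-factors Pygo1/2 or Bcl9/B9l alters normal crypts and the adenomas that form in ApcMin mice. There were 12 crypt and 20 adenoma samples, hybridised 1 to an array in 2 batches of 26 and 6.

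All mice were listed as C57BL/6J and 120 days old. By the study's methods, the Pygo1/2 and Bcl9/B9l lines had been back-crossed to C57BL/6 over 4 generations. The 12 crypt arrays, all of batch 1, held 4 groups of 3: wt crypts, crypts that carried villin.Cre/+ alone, Pygo1/2 DKO crypts (Pygo1-/- with Pygo2 LoxP/LoxP and villin.Cre/+) and Bcl9/B9l DKO crypts (Bcl9 LoxP/LoxP with B9l LoxP/LoxP and villin.Cre/+). Each adenoma group was heterozygous for ApcMin. Batch 1 held 6 ApcMin adenomas without a knockout, 5 Pygo1/2 DKO adenomas and 3 Bcl9/B9l DKO adenomas. Batch 2 held 3 further ApcMin adenomas and 3 QKO adenomas, in which all 4 co-factor genes were targeted. The villin promoter drives Cre in the gut epithelium, so the LoxP alleles were deleted only there, whereas Pygo1 was absent from every tissue. The ApcMin control adenomas carried no Cre by their labels. The labels do not say that each array came from its own mouse, so p-values measure the spread between arrays. Crypts were epithelium released from the wall and adenomas were excised whole.

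Reg3b and Reg3g, the main intestinal members, bind the bacterial cell wall and hold microbes away from the epithelium. Their transcription in enterocytes and Paneth cells is known to be driven by microbial signals through MyD88 and by IL-22, which acts through the transcription factor STAT3. Reg1 and Reg2 are best known from the exocrine pancreas and its regeneration, Reg3a and Reg3d are close relatives of Reg3b, and Reg4 marks deep crypt secretory cells of the colon and enteroendocrine cells.

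Apart from Reg4, which lies on chromosome 3 (98222138-98236748), the members form 1 cluster of 6 genes over 98 kb of chromosome 6 (78370885-78468874, RefSeq on GRCm38.p6). All 7 members had an entry in the RefSeq promoter table. The 250 bases before the start sites of the 4 Reg3 genes are shown because these neighbours behaved unlike each other across the groups. Enhancers, where the study places the β-catenin co-factors, were not searched. Capitals mark the STAT core TTCNNNGAA, the TATA box TATAAA and the TCF/LEF words CTTTGAT and CTTTGTT, searched on both strands, and no matches overlapped. Reg3b lies at chr6:78370635-78370884 on the plus strand, Reg3g at chr6:78468875-78469124 on the minus strand, Reg3a at chr6:78380459-78380708 on the plus strand and Reg3d at chr6:78378866-78379115 on the minus strand, in these windows.
Reg3b: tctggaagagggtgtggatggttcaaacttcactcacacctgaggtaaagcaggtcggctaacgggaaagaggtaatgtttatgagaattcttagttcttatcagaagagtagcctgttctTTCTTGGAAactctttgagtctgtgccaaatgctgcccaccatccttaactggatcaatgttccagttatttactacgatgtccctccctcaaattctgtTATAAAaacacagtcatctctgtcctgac
Reg3g: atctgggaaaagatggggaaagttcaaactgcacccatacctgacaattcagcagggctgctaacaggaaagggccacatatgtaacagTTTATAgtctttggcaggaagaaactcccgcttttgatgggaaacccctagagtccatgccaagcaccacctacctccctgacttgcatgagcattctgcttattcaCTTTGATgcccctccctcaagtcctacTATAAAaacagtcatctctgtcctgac
Reg3a: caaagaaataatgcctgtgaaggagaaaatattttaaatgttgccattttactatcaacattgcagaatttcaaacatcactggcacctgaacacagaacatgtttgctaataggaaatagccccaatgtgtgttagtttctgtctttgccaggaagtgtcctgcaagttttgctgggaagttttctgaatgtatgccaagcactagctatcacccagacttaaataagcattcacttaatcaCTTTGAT
Reg3d: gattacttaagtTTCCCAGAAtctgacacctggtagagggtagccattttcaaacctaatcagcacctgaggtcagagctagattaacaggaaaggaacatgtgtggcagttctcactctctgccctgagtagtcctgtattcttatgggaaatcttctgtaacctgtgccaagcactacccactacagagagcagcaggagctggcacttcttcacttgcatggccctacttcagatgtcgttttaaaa

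The windows of Reg3b and Reg3g were the most alike of all pairs of members, with 68.9% identity in a global alignment. Reg3b shared 49.3% with Reg3a and 54.3% with Reg3d. The STAT core was present in 2 of the 7 members, Reg3b (129 bases before the start) and Reg3d, against 7.02% of all 32851 promoters of the same length. TATAAA was present in 4 of 7 (Reg1, Reg2, Reg3b and Reg3g), against 12.4%. CTTTGAT was present in 3 of 7 (Reg2, Reg3a and Reg3g), against 3.21%, and CTTTGTT in 1 of 7 (Reg4), against 5.03%. A match is a description of letters and not a binding site.

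Levels below are log2 normalised intensities after background correction, and a transcript was called detected at a detection p-value under 0.01. Levels are compared between groups for 1 probe at a time, since probe brightness differs between genes, and never across batches, since each batch was normalised on its own. Batch 1 arrays had mean intensities of 307 to 445 and 12913 to 16319 detected probes, and batch 2 arrays 156 to 217 and 14081 to 14666. Of 7 epithelial markers, 6 or 7 were detected in each array, and Epcam was not detected in either batch 2 group. Pygo2 was 7.97 to 8.59 in Pygo1/2 DKO crypts against 9.52 to 10.06 in the other crypts, and 8.97 to 9.56 in Pygo1/2 DKO adenomas against 9.99 to 10.58 in the batch 1 ApcMin adenomas. The probes of Bcl9 and Bcl9l were not lower in the Bcl9/B9l DKO, and where they lie relative to the deleted part was not analysed here.

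Reg1, both Reg3b probes, Reg3a and Reg3g were detected in all 32 arrays. Reg4 was detected in 12 of 32 arrays, Reg3d in 8 and Reg2 in 3. The first Reg3b probe (ILMN_2887421) was the brighter, with intensities of 3456 to 31767, whereas the second (ILMN_2705804) ran from 96.7 to 2758. The first probe lay close to the top of the intensity range of these arrays, whose highest values were 36241 in batch 1 and 24305 in batch 2, and Reg1 lay there too. The probe sequences were not analysed here, so signal shared between these similar genes cannot be told apart.

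**Figure D1:**
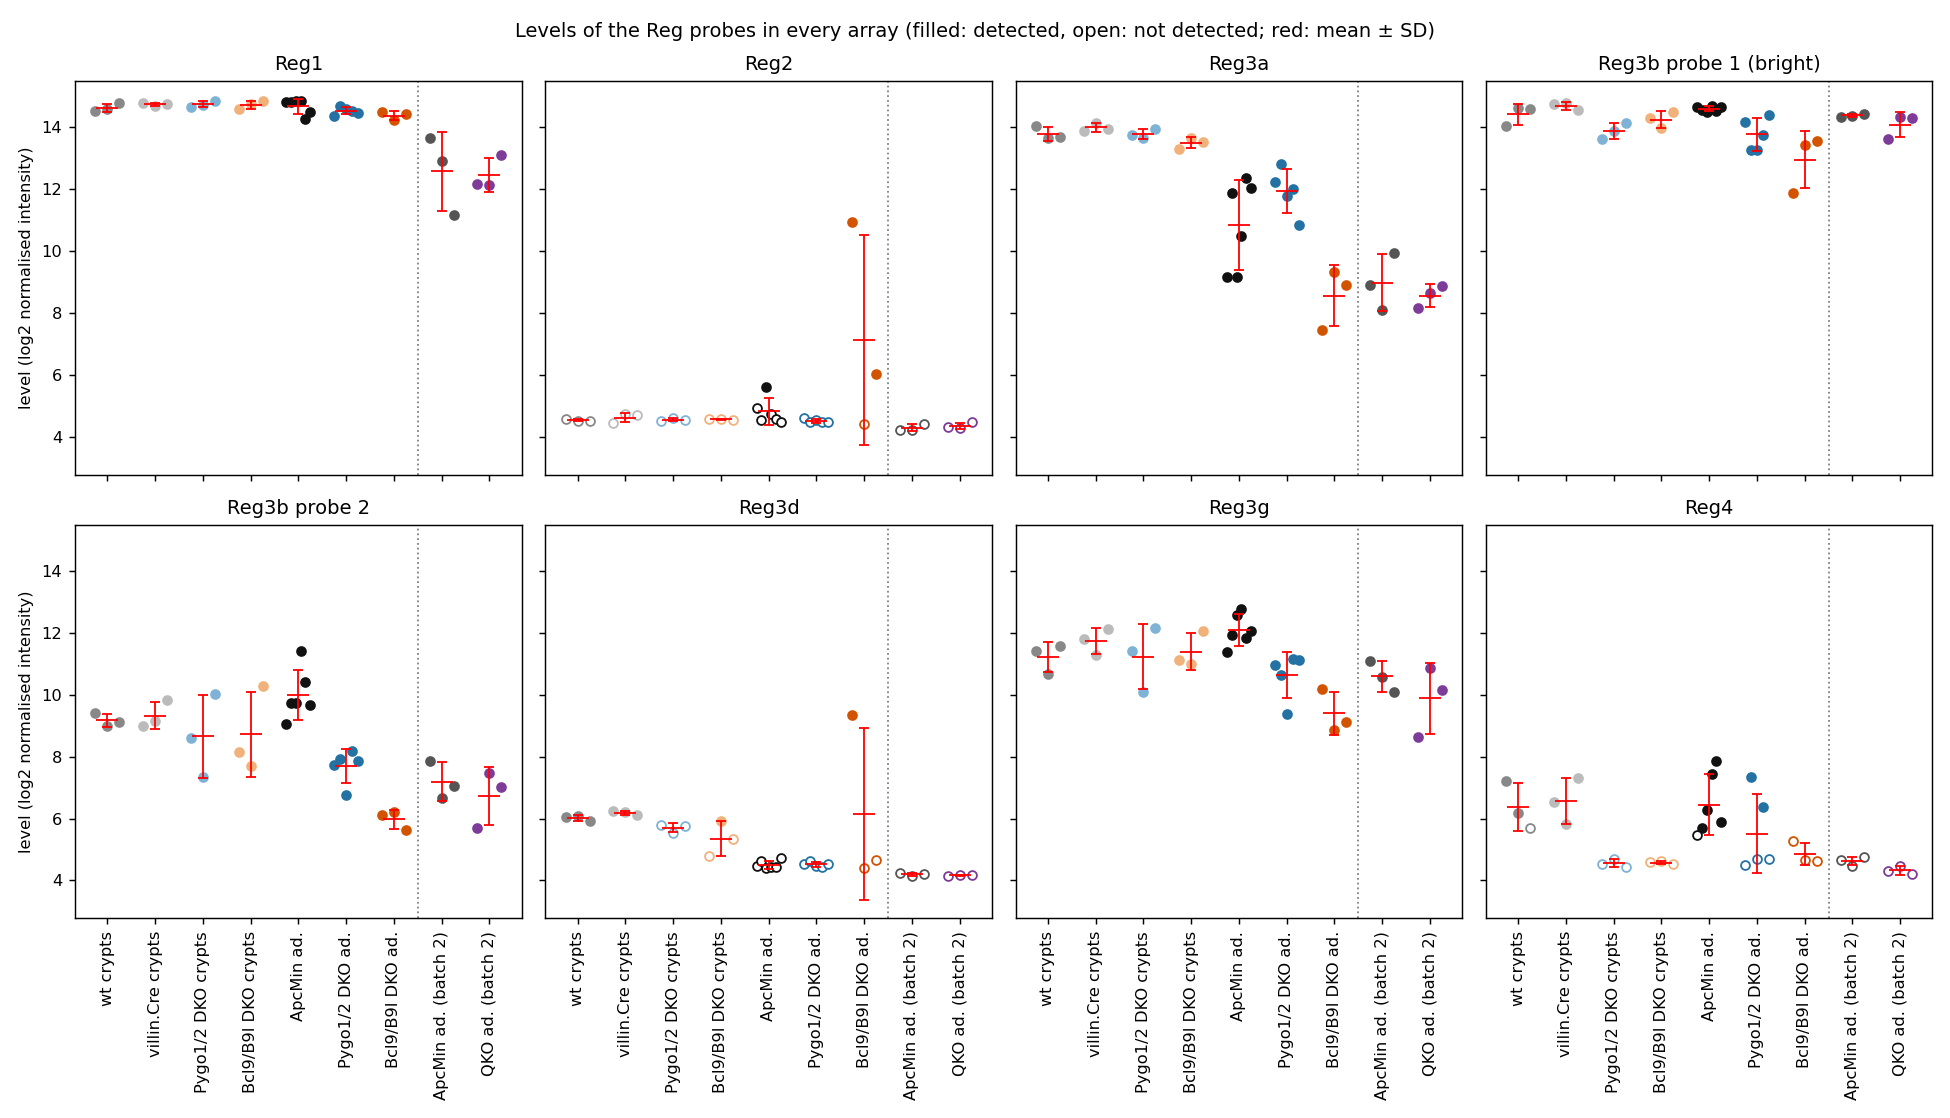
Log2 level of each of the 8 Reg probes (1 panel each, y axis) in every array of the 8 title groups, with ApcMin adenomas split by batch (x axis). Points are arrays, open where the probe was not detected, red bars are the mean ± SD, and a dotted line parts the batches. The second Reg3b probe lies between 9.07 and 11.41 in the batch 1 ApcMin adenomas and between 5.63 and 6.20 in the Bcl9/B9l DKO adenomas.

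The first comparison asked what separates an ApcMin adenoma from a normal crypt. Reg3a, in the same cluster as Reg3b, was 7.70-fold lower in ApcMin adenomas than in wt crypts, and the pancreas-associated Reg3d went from detected to not detected. Reg3b, Reg3g, Reg1 and Reg4 did not pass the threshold. This was a fit of the 6 batch 1 ApcMin adenomas and 3 wt crypts with limma and Benjamini-Hochberg adjustment, in which 36.3% of the 18382 probes tested passed an adjusted p of 0.01, and 2 of 8 Reg probes passed, both lower. The share among all probes was therefore larger than the 2 of 8 seen in the family.

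Reg3a levels were 14.05, 13.65 and 13.69 in the wt crypts, and the 6 ApcMin adenomas ran from 9.15 through a median of 11.19 to 12.37. The groups did not overlap, and the adenomas spread widely, with 3 arrays at 9.15, 9.16 and 10.48 and 3 between 11.90 and 12.37. The difference was -2.94 ± 0.70 on the log2 scale (SE, limma adjusted p = 0.00475). Only 3 wt crypts carried this call, since the adjusted p was 0.0225, 0.0178 and 0.0172 without wt crypt replicates 1, 2 and 3, and 0.0279 without the filter on detection.

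Reg3d levels were 6.04, 6.09 and 5.91 in the wt crypts, detected in 3 of 3, and 4.40 to 4.73 in the adenomas, detected in 0 of 6. Because a probe not above background has only a bound, Reg3d was at least 1.44-fold lower in ApcMin adenomas (limma adjusted p = 4.75e-06). The bound is the mean of the bright group against, per array, the higher of the lowest detected level and the dim probe's own. The call was lost where all 7 batch 1 groups shared 1 variance (adjusted p = 0.0394).

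Reg3g, which targets Gram-positive bacteria, was 11.42, 10.67 and 11.58 in the wt crypts and 11.40, 12.00 and 12.79 (lowest, median and highest) in the ApcMin adenomas. The ranges overlapped at their edge, and the difference was 0.87 ± 0.30 (limma adjusted p = 0.031, above the threshold of 0.01). Reg3b differed by 0.18 ± 0.16 on the first probe (limma adjusted p = 0.364) and on the second by 0.83 ± 0.40 (limma adjusted p = 0.107). Reg1, at 14.53 to 14.78 in wt crypts and 14.28 to 14.86 in adenomas, overlapped almost entirely.

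Genes around Reg3b and Reg3g moved in both directions in these adenomas, in a fit where 17.7% of all probes tested rose and 18.6% fell. Of 20 other epithelial defence genes known to be induced by STAT3 or cytokines, 15 were tested, 11 rose and 0 fell, with a median of 2.41 against -0.09 over all probes. They included Lcn2, which starves bacteria of iron (6.12 ± 0.49), the secreted glycoprotein gene Lrg1 (6.39 ± 0.52), the iron-binding Ltf (4.70 ± 0.23) and the protease inhibitor Slpi (5.76 ± 0.24). A list of cytokine ligands held IL-22, IL-17 and IL-6 family genes and others, among them the IL-1 family genes Il1b, Il18 and Il33. Of 5 of these ligands tested, 3 rose, Il33 by 2.02 ± 0.20, Il1b by 2.96 ± 0.30 and the IL-6 family gene Il11 by 3.35 ± 0.35. Il18 fell by 0.91 on the log2 scale. Of 12 receptor and STAT3 signalling genes tested, 4 rose, among them Osmr (2.75 ± 0.20), the feedback inhibitor Socs3 (1.70 ± 0.23) and Extl3 (1.35 ± 0.14), which has been described as a Reg receptor, and 3 fell, among them Jak2. Of 9 microbial sensing genes tested, 4 rose, led by the bacterial lipopeptide receptor Tlr2 (3.05 ± 0.27) with Myd88 at 0.54 ± 0.12. Of 9 other secreted antimicrobial genes tested, 3 rose: the goblet cell resistin-like gene Retnlb (3.96 ± 0.40), Pla2g2a (3.34 ± 0.20) and Lyz2 (4.80 ± 0.17), which is also a macrophage gene.

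Other cell types and gut position moved with this comparison. The macrophage, fibroblast and endothelial markers on the array were all detected in each batch 1 adenoma, and few were in crypts. The ileal bile acid carrier Fabp6 was 13.18 to 13.78 in wt crypts and 5.48 to 6.68 in the ApcMin adenomas of batch 1. In bulk samples, fewer cells of a type and less RNA per cell cannot be told apart. The part of cell mixture and of gut position in the Reg differences was not tested.

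The next comparisons asked what each knockout changes within adenomas. In Bcl9/B9l DKO adenomas, Reg3b and Reg3g were lower than in ApcMin adenomas of the same batch. With the second Reg3b probe the level was 16.3-fold lower, that of Reg3g was 6.48-fold lower, and both passed the threshold. In this fit of 3 against 6 arrays, 1.56% of the 18443 probes tested passed an adjusted p of 0.01, and 2 of 8 Reg probes passed, both lower.

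Levels of the second Reg3b probe were 6.10, 6.20 and 5.63 in the Bcl9/B9l DKO adenomas, and ran from 9.07 through 9.75 to 11.41 (lowest, median, highest) in the 6 ApcMin adenomas. Every knockout array lay far below every control array. The difference was -4.03 ± 0.41 (limma adjusted p = 0.000467). Reg3g was 10.20, 8.88 and 9.13 against 11.40, 12.00 and 12.79, again with no overlap and with replicate 1 the highest of the knockout arrays. Its difference was -2.70 ± 0.34 (limma adjusted p = 0.00133), and without Bcl9/B9l DKO replicate 3 it was -2.56 with an adjusted p of 0.0106. Without the filter on detection, the adjusted p of Reg3g was 0.0156.

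The first Reg3b probe went the same way without passing. It was 11.90, 13.42 and 13.55 in the Bcl9/B9l DKO adenomas and 14.50 to 14.68 in the ApcMin adenomas, which were tightly grouped (14.60 ± 0.08, SD, n = 6). The groups did not overlap, and the difference was -1.65 ± 0.31 (limma adjusted p = 0.012). It passed without Bcl9/B9l DKO replicate 1, the lowest array (-1.11, adjusted p = 0.00398), with the batch 2 ApcMin adenomas added (-1.71, adjusted p = 0.00327) and with all 7 batch 1 groups in 1 fit (adjusted p = 0.000324). The fold of this probe was smaller than that of the second, 3.13 against 16.3, and its intensities in the ApcMin adenomas, 20429 to 26078, lay near the top of the range of these arrays. The part of that in the smaller fold was not tested.

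**Figure D2:**
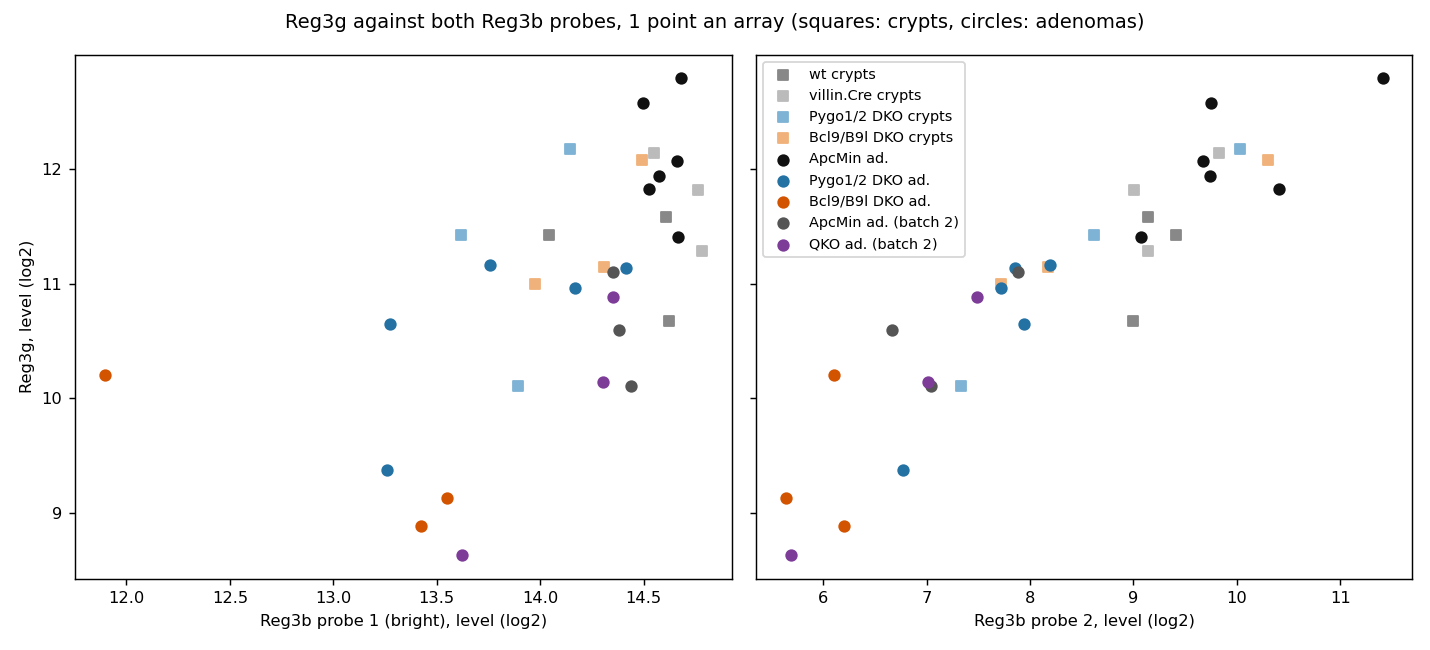
Level of Reg3g (y axis, log2) against the first (left) and second (right) Reg3b probe (x axes, log2) in all 32 arrays, with crypts as squares, adenomas as circles and colour for group. On the right, the Bcl9/B9l DKO adenomas lie at the low end (5.63 to 6.20), the 6 ApcMin adenomas of batch 1 at the high end (9.07 to 11.41) and the Pygo1/2 DKO adenomas between them. Levels of different batches were normalised apart.

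Reg3a was 7.46, 9.34 and 8.89 in the Bcl9/B9l DKO adenomas, a range that touched the lowest ApcMin adenomas at 9.15 and 9.16. The difference of -2.29 ± 0.76 did not pass (limma adjusted p = 0.119), although it did with all 7 groups in 1 fit (adjusted p = 0.00969). Reg4 was detected in 5 of 6 ApcMin adenomas (5.47 to 7.86) and in 0 of 3 Bcl9/B9l DKO adenomas (5.28, 4.67 and 4.63), which makes it at least 1.90-fold lower (limma adjusted p = 0.0969). Reg1 overlapped, at 14.50, 14.23 and 14.42 against 14.28 to 14.86 (-0.30 ± 0.17, limma adjusted p = 0.355).

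Reg2 and Reg3d stood high in single Bcl9/B9l DKO adenomas. Reg2 was 10.95 in replicate 1, 6.02 in replicate 3 and not detected in replicate 2, and elsewhere it was detected in 1 array, an ApcMin adenoma at 5.62. Reg3d was 9.36 in replicate 1 and not detected in replicates 2 and 3 nor in any other adenoma. The same arrays carried pancreatic acinar transcripts. Of 17 acinar genes on the array, 17 were detected in replicate 1, 6 in replicate 2 and 16 in replicate 3, against 4 to 7 in the ApcMin adenomas and 4 to 6 in the Pygo1/2 DKO adenomas. The pro-carboxypeptidase gene Cpa1 was 14.26 in replicate 1, not detected in replicate 2 and not detected in any other group. The summed acinar level was 14127 to 345779 in the Bcl9/B9l DKO adenomas and at most 23061 in the other groups.

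Replicate 2 was then compared alone with the 6 ApcMin adenomas, an alternative chosen after seeing the data in which the lone array is assumed to vary like the controls. In that fit the second Reg3b probe differed by -3.81 (limma adjusted p = 0.0421), Reg3g by -3.22 (adjusted p = 0.0186) and the first Reg3b probe by -1.18 (adjusted p = 0.0439), so that no Reg probe passed 0.01. Reg2 went from 2.32 ± 1.05 (adjusted p = 0.238) with all arrays to -0.39 (adjusted p = 0.661). In this single array, acinar genes were detected in the number seen in controls. Both Reg3b probes and Reg3g lay below all 6 ApcMin adenomas in it, and Reg2 and Reg3d were not detected. The part of acinar transcripts in the Reg differences was not tested.

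**Figure D3:**
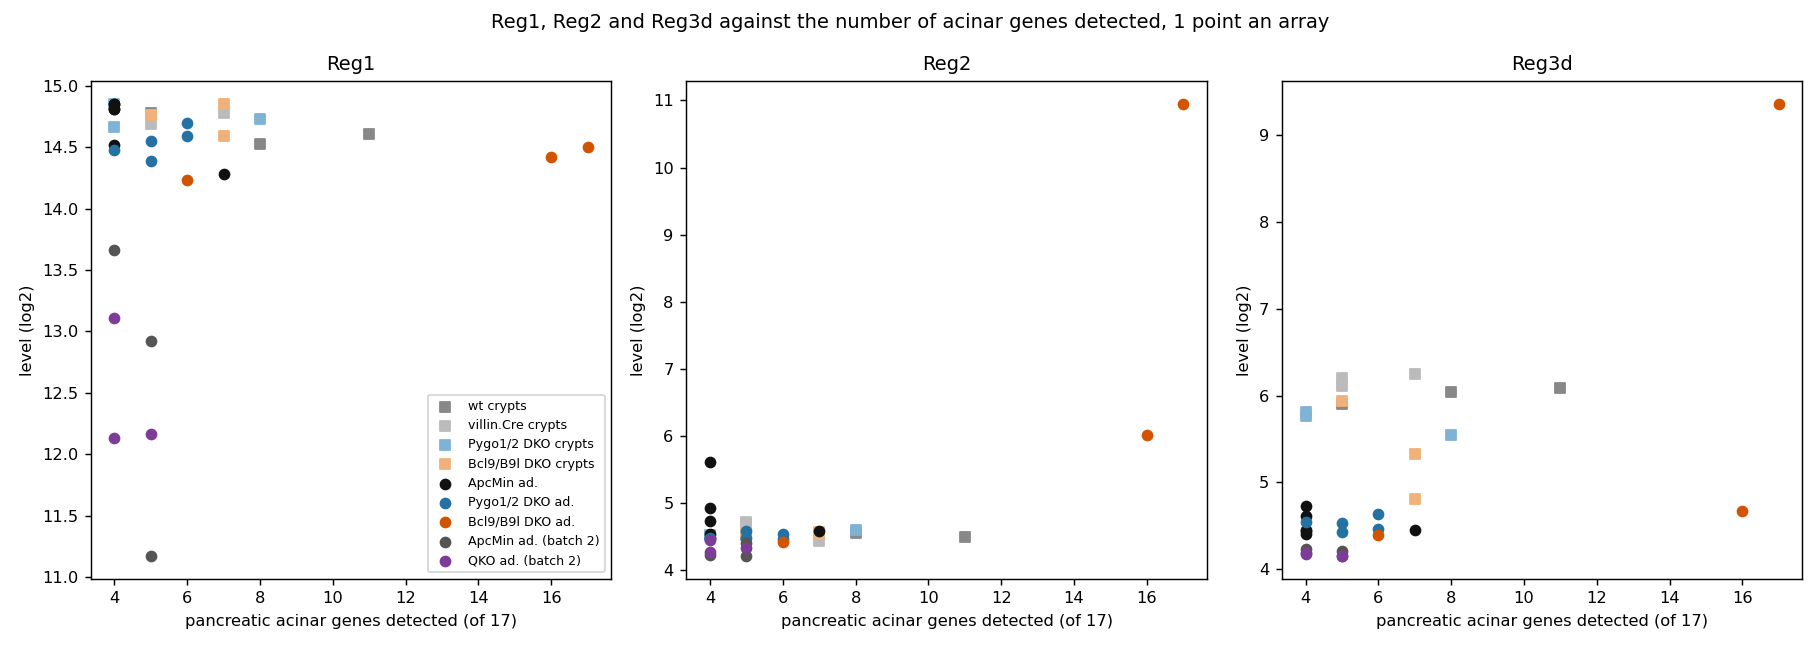
Level of Reg1, Reg2 and Reg3d (y axes, log2) against the number of 17 pancreatic acinar genes detected (x axes) in each of the 32 arrays, with crypts as squares, adenomas as circles and colour for group. Bcl9/B9l DKO adenoma replicates 1 and 3 lie far to the right at 17 and 16 genes, and Reg2 is 10.95 and 6.02 in them.

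The cytokine-induced genes were partly lower in the same comparison. Of 16 tested, 4 fell and 0 rose, with a median of -1.18 against 0.04 over all probes: Ltf (-3.74 ± 0.23), Lcn2 (-4.32 ± 0.55), Fut2 (-1.33), which fucosylates the gut surface, and Lrg1 (-3.25). Of 6 ligands tested 2 fell, the IL-1 family genes Il18 (-1.58) and Il33 (-1.65), and 0 rose. None of 12 receptor and STAT3 signalling genes or 9 microbial sensing genes passed, and Socs3 stood at -1.27 (limma adjusted p = 0.031). Of 9 other secreted antimicrobials, Retnlb (-1.70) and Sprr2a1 (-1.37) fell. With replicate 2 alone, 1 of the cytokine-induced genes passed. Summed enterocyte markers were 30173 to 41708 in the Bcl9/B9l DKO adenomas against 68744 to 88901 in the ApcMin adenomas, and B and plasma cell markers 379 to 685 against 1045 to 3349. T cell and innate lymphoid markers summed to 499 to 607 against 746 to 1522, and of the CD3 chain genes Cd3g (-2.20, limma adjusted p = 0.00288) and Cd3e (-1.83, adjusted p = 0.00954) fell, with Cd3d at -1.51 (adjusted p = 0.0147). Paneth cell markers overlapped, at 48700 to 57701 against 29626 to 60103. Xist, expressed from an inactive X chromosome in female cells, was detected in 6 of 6 ApcMin adenomas and 0 of 3 Bcl9/B9l DKO adenomas, so that sex and knockout cannot be told apart in this comparison. Markers of gut position moved as well. Of the duodenum and jejunum markers, Cyp2e1 rose by 3.95 ± 0.57 (limma adjusted p = 0.00305), while Slc46a1 stood at -0.89 (adjusted p = 0.204). Of the ileal and distal markers, Slc51b fell by 2.07 on the log2 scale (adjusted p = 0.00637), while Fabp6 stood at -0.32 (adjusted p = 0.564). The part of cell types and of gut position in the Reg differences was not tested.

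In Pygo1/2 DKO adenomas the same 3 probes lay below the ApcMin adenomas, with smaller differences, and none passed. Here 0.117% of the 18872 probes tested passed 0.01, and 0 of 7 Reg probes tested did (Reg3d was not detected in either group). An unadjusted p under 0.05 was reached by 3 Reg probes and by 2533 of all 18872 probes. How many of all probes had groups without overlap was not counted. On the second Reg3b probe the levels were 7.72, 7.94, 6.77, 8.19 and 7.86 in the knockout arrays, all under the lowest ApcMin adenoma at 9.07. The difference was -2.31 ± 0.36, or 4.97-fold (limma adjusted p = 0.0128). It passed without ApcMin replicate 1 (-2.50, adjusted p = 0.00707), without ApcMin replicate 5 (-2.03, adjusted p = 0.00537), with the batch 2 ApcMin adenomas added (-2.29, adjusted p = 0.00814) and with all 7 groups in 1 fit (adjusted p = 0.00406).

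Reg3g was 10.96, 10.65, 9.37, 11.16 and 11.13 in the Pygo1/2 DKO adenomas, below the lowest control at 11.40, and differed by -1.45 ± 0.32 (limma adjusted p = 0.0683). On the first Reg3b probe the levels were 14.17, 13.27, 13.26, 13.76 and 14.41, below the lowest control at 14.50, and differed by -0.83 ± 0.20 (adjusted p = 0.0926). Both groups were separate for each of these probes, by a margin of less than 0.5 on the log2 scale. Reg3a overlapped, at 10.86 to 12.82 against 9.15 to 12.37 (1.09 ± 0.59, limma adjusted p = 0.446). Reg4 was detected in 2 of 5 knockout arrays, at 7.34 and 6.37, and overlapped with the controls.

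None of the pathway lists had a gene that passed in Pygo1/2 DKO adenomas. The cytokine-induced genes had a median of -0.06 against 0.02 over all probes, and Lcn2 was 9.93 to 11.75 in the knockout against 9.06 to 11.66 in the ApcMin adenomas. The levels of Reg3b and Reg3g were separated without passing, and those of Lcn2 overlapped. Whether these genes differ in their response was not tested. Acinar genes were detected at 4 to 6 of 17, Xist in 5 of 5 arrays, and Fabp6 was 5.03 to 5.66, overlapping the ApcMin values. B and plasma cell markers summed to 345 to 611 against 1045 to 3349, and the enterocyte sums overlapped, at 49252 to 81054 against 68744 to 88901. T cell and innate lymphoid markers summed to 620 to 911 against 746 to 1522, with Cd3g at -1.35 (limma adjusted p = 0.0555), Cd3d at -1.20 (adjusted p = 0.0612) and Cd3e at -1.42 (adjusted p = 0.0685). The part of lymphoid cells in the difference was not tested.

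The DKO adenomas were then set against each other to test whether the 2 knockouts differ. Reg3a was 10.4-fold lower in Bcl9/B9l DKO adenomas than in Pygo1/2 DKO adenomas. Its levels were 7.46, 9.34 and 8.89 against 12.24, 12.82, 11.77, 12.02 and 10.86, with a clear gap between the groups, and the difference was -3.38 ± 0.47 (limma adjusted p = 0.00395). In this fit 0.662% of the 18737 probes tested passed 0.01, and 1 of 8 Reg probes, lower. The call was lost with the deposited normalised values (-2.98, adjusted p = 0.0246), without the detection filter (adjusted p = 0.0732) and without Pygo1/2 DKO replicate 3 (adjusted p = 0.0102), Pygo1/2 DKO replicate 4 (0.0109) or Bcl9/B9l DKO replicate 3 (-3.55, 0.016). With replicate 2 as the only Bcl9/B9l DKO array it was -2.61 (adjusted p = 0.143).

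Reg3b on its second probe was 3.29-fold lower in Bcl9/B9l than in Pygo1/2 DKO adenomas with no overlap (-1.72 ± 0.30, limma adjusted p = 0.0155), and passed without Pygo1/2 DKO replicate 3 (-1.95, adjusted p = 0.00161). Reg3g differed by -1.25 ± 0.42 (adjusted p = 0.223) and the first Reg3b probe by -0.82 ± 0.40 (adjusted p = 0.461), both with overlapping ranges. Of 16 cytokine-induced genes tested 3 fell, Lcn2 (-4.21), Lrg1 (-3.50) and Ltf (-3.38). Xist separated these groups too (0 of 3 against 5 of 5 arrays), so that sex and knockout cannot be told apart. Acinar transcripts were high in Bcl9/B9l DKO replicates 1 and 3 only, and replicate 2 lay within the Pygo1/2 DKO count of 4 to 6 genes.

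**Figure D4:**
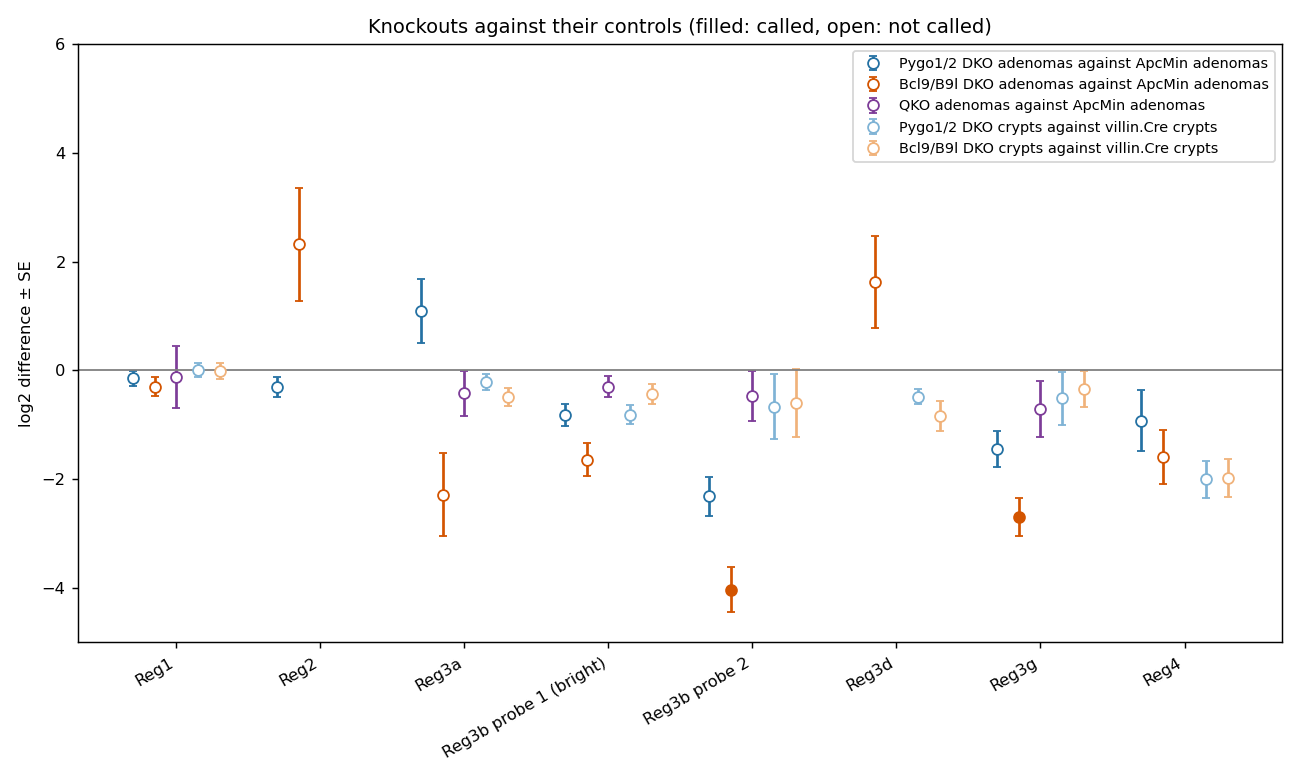
Difference in log2 level between a knockout and its control (y axis, bars of 1 SE) for each of the 8 Reg probes (x axis) in 5 comparisons, marked by colour. Filled points passed the threshold of the comparison and open points did not. In Bcl9/B9l DKO adenomas the second Reg3b probe lies at -4.03 and Reg3g at -2.70, the filled points of the plot.

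In QKO adenomas, where all 4 co-factor genes were targeted, no Reg probe passed against the batch 2 ApcMin adenomas. There 4.68% of the 17015 probes tested passed 0.01, and 0 of 5 Reg probes tested did. An unadjusted p under 0.05 was reached by 0 Reg probes and by 5116 of all 17015 probes. Reg2, Reg3d and Reg4 were detected in none of these 6 arrays. Reg3g was 8.63, 10.89 and 10.14 in the QKO and 11.10, 10.59 and 10.10 in the controls (-0.71 ± 0.51, limma adjusted p = 0.391). The second Reg3b probe was 5.69, 7.48 and 7.02 against 7.88, 6.67 and 7.05 (-0.47 ± 0.46, adjusted p = 0.531). Reg3b on its first probe was 13.62, 14.35 and 14.31 against 14.35, 14.38 and 14.44 (-0.30 ± 0.20, adjusted p = 0.349). QKO replicate 1 was the lowest array for all 3 probes, and the other QKO arrays lay within or close to the controls. A miss at this number of arrays does not show that levels were equal.

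Reg1 and Reg3a were spread among the same controls. Reg1 was 13.66, 12.92 and 11.17 in the batch 2 ApcMin adenomas and 12.16, 12.13 and 13.11 in the QKO (-0.12 ± 0.57, limma adjusted p = 0.912). Reg3a was 8.92, 8.11 and 9.93 against 8.16, 8.64 and 8.88 in the QKO (-0.43 ± 0.41, adjusted p = 0.523).

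The 5 Reg probes tested had a median of -0.43 in the QKO, and none passed. Of 16 cytokine-induced genes tested, 6 fell in the QKO and 0 rose, with a median of -1.35 against 0.04 over all probes. They included Saa1 (-5.09), an acute phase apolipoprotein, Lcn2 (-3.53), Lrg1 (-3.43) and the neutrophil chemokine Cxcl1 (-1.65). Of 8 ligands tested Il11 fell (-2.14), and of 9 other antimicrobials the goblet cell genes Retnlb (-3.30) and Zg16 (-1.22) fell while the lectin Itln1 rose (1.66). The Fabp6 level was 11.49 to 11.80 in the batch 2 ApcMin adenomas and the gene was not detected in the QKO, so gut position and genotype cannot be told apart here. Xist was detected in 2 of 3 arrays of each group.

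The QKO was compared with each DKO through the ApcMin adenomas of both batches, in fits of group plus batch over all 20 adenomas normalised together. Against Bcl9/B9l DKO, 0.307% of the 20202 probes tested passed 0.01, and 0 of 8 Reg probes did. At an unadjusted p under 0.05 were 3 Reg probes, against 2473 of all 20202 probes. After adjustment for batch, the second Reg3b probe was higher in the QKO by 3.27 ± 0.66 (limma adjusted p = 0.0154), which passed without QKO replicate 1 (3.83, adjusted p = 0.00359). Its first probe stood at 1.61 ± 0.45 (adjusted p = 0.101) and Reg3g at 1.87 ± 0.67 (adjusted p = 0.21). Against Pygo1/2 DKO, 2.57% of 20202 probes passed and 0 of 8 Reg probes. At an unadjusted p under 0.05 were 3507 of all probes and 1 Reg probe, the second of Reg3b at 1.65 ± 0.62 (limma adjusted p = 0.148). The 2 comparisons share the QKO and ApcMin arrays. Both fits assume that the ApcMin adenomas of the 2 batches differ by batch alone. In the fit against Bcl9/B9l DKO, Fabp6 stood at -7.46 ± 0.37, although it was detected in 0 of 3 QKO and 2 of 3 Bcl9/B9l DKO arrays. Gut position of the ApcMin adenomas and batch can therefore not be told apart in these differences.

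The crypt comparisons asked whether the knockouts change the family outside a tumour. Reg4 was detected in 5 of 6 crypt arrays without a knockout and in 0 of 6 DKO crypts. Its levels were 7.21, 6.20 and 5.68 in wt crypts and 6.55, 5.82 and 7.31 in villin.Cre crypts, against 4.53, 4.70 and 4.44 in Pygo1/2 DKO crypts and 4.59, 4.62 and 4.53 in Bcl9/B9l DKO crypts. No knockout array reached the lowest control, yet neither comparison passed the adjusted p of 0.05 used for crypts.

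For Pygo1/2 DKO crypts against villin.Cre crypts, 0.124% of the 15375 probes tested passed and 0 of 7 Reg probes did. At an unadjusted p under 0.05 were 3 Reg probes, against 2645 of all 15375 probes. Reg4 was at least 1.51-fold lower (limma adjusted p = 0.0762). It passed with wt crypts pooled into the controls (-1.90, adjusted p = 0.0166) and with quantile normalisation without background correction (-1.25, adjusted p = 0.0487). The first Reg3b probe was 13.62, 13.89 and 14.15 against 14.76, 14.78 and 14.55, without overlap (-0.81 ± 0.17, adjusted p = 0.0967), and passed with the deposited normalised values (-0.98, adjusted p = 0.0299). Its second probe overlapped, at 8.62, 7.33 and 10.03 against 9.01, 9.14 and 9.82. Reg3d was not detected in the 3 knockout arrays and was at least 1.17-fold lower (adjusted p = 0.152).

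For Bcl9/B9l DKO crypts against villin.Cre crypts, 0.0698% of the 15750 probes tested passed and 0 of 7 Reg probes did. At an unadjusted p under 0.05 were 4 Reg probes, against 734 of all 15750 probes. Reg4 was at least 1.65-fold lower (limma adjusted p = 0.219). Reg3a was 13.31, 13.66 and 13.54 against 13.89, 14.15 and 13.96, without overlap (-0.50 ± 0.16, adjusted p = 0.837). Reg3g overlapped in both knockouts, at 11.42, 10.11 and 12.17 in Pygo1/2 DKO and 11.14, 10.99 and 12.08 in Bcl9/B9l DKO crypts against 11.81, 11.29 and 12.14. Both knockouts were set against the same 3 control arrays. No gene of the pathway lists passed in either crypt comparison.

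Between villin.Cre and wt crypts, which differ by the Cre transgene, 0.0258% of the 15528 probes tested passed an adjusted p of 0.05. An unadjusted p under 0.05 was reached by 714 of them. Of 7 Reg probes 0 passed (limma adjusted p = 0.999 for each), with 0 at an unadjusted p under 0.05. The largest of these differences was 0.52 ± 0.29, for Reg3g. In the 4 crypt groups, none of the 5 endothelial or 4 neutrophil markers was detected, at most 1 of 9 fibroblast markers and 1 to 4 of 8 macrophage markers were, and 3 of 6 T cell and innate lymphoid markers and 2 to 4 of 6 smooth muscle markers were. Fabp6 was 13.03 to 14.17 across them.

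Each knockout's adenomas were also set against crypts of the same knockout. Reg3a was lower in the adenomas of both. In Pygo1/2 DKO it was 12.24, 12.82, 11.77, 12.02 and 10.86 in adenomas against 13.76, 13.66 and 13.96 in crypts, without overlap (3.60-fold, -1.85 ± 0.35, limma adjusted p = 0.000882, and 0.0107 without the detection filter). There 41.9% of the 18698 probes tested passed 0.01, against 1 of 6 Reg probes tested, lower. Reg3b on its second probe stood at -0.96 ± 0.50 (adjusted p = 0.119) and passed without Pygo1/2 DKO crypt replicate 2 (-1.63, adjusted p = 0.00851).

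In Bcl9/B9l DKO, 3 of 7 Reg probes tested were lower in adenomas, where 22.1% of the 17875 probes tested passed 0.01. Reg3a was 30.8-fold lower, at 7.46, 9.34 and 8.89 against 13.31, 13.66 and 13.54 (-4.94 ± 0.44, limma adjusted p = 0.000127). Next came the second Reg3b probe, 6.72-fold lower, at 6.10, 6.20 and 5.63 against 8.17, 7.71 and 10.30 (-2.75 ± 0.60, adjusted p = 0.00823). Reg3g was 4.00-fold lower, at 10.20, 8.88 and 9.13 against 11.14, 10.99 and 12.08 (-2.001 ± 0.408, adjusted p = 0.00617). Reg3b on its first probe did not pass (-1.30 ± 0.42, adjusted p = 0.0406). With replicate 2 as the only adenoma, Reg3a still passed (-4.17, adjusted p = 0.00226), while the second Reg3b probe (-2.53, adjusted p = 0.141) and Reg3g (-2.52, adjusted p = 0.0276) did not. Both calls depended on single arrays. That of Reg3g was lost without any of the 3 crypts (adjusted p = 0.0133, 0.0149 and 0.0196) and without adenoma replicate 2 (0.0262) or 3 (0.0275), and that of the second Reg3b probe without crypt replicate 1 (0.013) and without adenoma replicates 1, 2 and 3 (0.0185, 0.0258 and 0.0342). Reg3a passed in each of these fits. Crypts and whole adenomas differ in stromal content, and the part of that in these differences was not tested.

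Whether a knockout acted differently in adenomas and crypts was tested as an interaction, and no Reg probe passed. The crypt controls carried villin.Cre and the adenoma controls did not by their labels, so Cre and knockout cannot be told apart here. Xist also separated the Bcl9/B9l DKO adenomas from their controls, so sex cannot be told apart from that knockout either. For Bcl9/B9l DKO, 0.447% of the 19253 probes tested passed 0.01 and 0 of 8 Reg probes did. At an unadjusted p under 0.05 were 4 Reg probes, against 2733 of all 19253 probes. The effect on the second Reg3b probe was -3.43 ± 0.78 further in adenomas (limma adjusted p = 0.0381), and that on Reg3g -2.35 ± 0.53 (adjusted p = 0.0361). For Pygo1/2 DKO, 0.0412% of the 19418 probes tested passed and 0 of 8 Reg probes did. At an unadjusted p under 0.05 were 3126 of all probes and 2 Reg probes. These were Reg3d at 0.49 ± 0.18 (limma adjusted p = 0.172) and the second Reg3b probe at -1.65 ± 0.71 (adjusted p = 0.261).

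Across the 14 batch 1 adenomas, the second Reg3b probe and Reg3g varied together (Pearson r = 0.93, Spearman rho = 0.93). These points share 3 groups that differ in level, and r of the deviations from the group means was 0.67. Pearson r of the levels themselves, without removal of group means, was 0.92 over the 6 batch 2 adenomas and 0.84 over the 12 crypts. The 2 probes of Reg3b had r = 0.78 over the 14 adenomas, but 0.07 for the deviations from the group means. Reg2 and Reg3d had r = 0.96, with a rho of 0.21, and this value rests on replicate 1 of the Bcl9/B9l DKO adenomas. These are descriptions, with no test.

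Among 5 genes outside the family whose levels were most like Reg3g over those 14 adenomas, Fam3b, a secreted cytokine-like gene, had r = 0.93 (0.73 within groups) and the mast cell protease gene Mcpt1 had r = 0.87 (0.66 within groups). For the second Reg3b probe they were led by Mcpt1 (r = 0.87, 0.61 within groups) and the mast cell carboxypeptidase gene Cpa3 (r = 0.86, 0.35 within groups). Tlcd2, Aldh4a1 and Treh came next, with r of -0.05, -0.04 and 0.29 within groups. For Mcpt1 in batch 2, r was 0.28 with Reg3g and 0.15 with the second Reg3b probe over 6 arrays. The first Reg3b probe was most like Rab11fip3 (r = 0.88) and Isg15 (r = 0.86), but r was 0.33 and -0.91 in batch 2 and -0.67 and -0.40 in crypts. Reg4 was most like Selenop (r = 0.91), with r = -0.07 in batch 2 and 0.11 in crypts. These values are limited by detection, since Reg4 was detected in 7 of 20 adenomas, none of batch 2, and in 5 of 12 crypts. Fam3b had r = 0.42 with Reg3g in batch 2 and 0.45 in crypts, and Cpa3 had 0.17 and 0.13 with the second Reg3b probe.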

How the data were processed

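RNA of crypts and adenomas was hybridised to Illumina MouseWG-6 v2 beadchips. The authors exported probe intensities from GenomeStudio 2011.1 without background correction or normalisation, with a detection p-value per probe and array that the authors deposited beside them. The deposited log2 table of 20824 probes (variance-stabilised and quantile-normalised by the authors, who used limma 3.34.9) served as an alternative only. All data columns matched a sample (0 left over). Here, each batch was background-corrected from the detection p-values, quantile-normalised and log2-transformed with neqc of limma 3.58.1 (R 4.3.3, offset 16). The 20 adenomas were normalised together for the QKO against DKO fits.

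Probes detected (p under 0.01) in at least 1 array of a fit were tested with lmFit and eBayes on the compared groups' arrays, and p-values were adjusted (Benjamini-Hochberg) over all probes tested. The thresholds were 0.01 for adenomas and tissues and 0.05 for crypts, after the study's methods. Of the 45281 probes, 17608 carried 1 gene symbol, 9 several and 27664 none. Every Reg probe was reported in every comparison. Other genes were given as the brightest probe per gene, up to 4 per pathway list by smallest p. Genes of like pattern were the 5 highest Pearson r among named probes detected in 7 or more of the batch 1 adenomas. The members and lists were chosen with earlier results of these data known.

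Alternatives were the offset (50), background correction, deposited values, detection filter, normalisation set, arrays in the fit, controls, batch 2 arrays, replicate block and each array left out. Leaving out both Bcl9/B9l DKO adenomas with acinar transcripts was chosen after seeing the data. The number of arrays limits the precision. The fits were tested on simulated data.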

Additional observations from a re-analysis of the deposited data

Results flagged for a closer look

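One array stood apart from its group among the 16 sets of Reg levels with 4 to 10 arrays that were examined, where chance flags about 1 set in 20. Pygo1/2 DKO adenoma replicate 3 had a Reg3g level of 9.37, and the other 4 arrays ran from 10.65 to 11.16, so that the gap made up 0.714 of the whole range. The knockouts also differed in Reg3a, which was lower in Bcl9/B9l DKO than in Pygo1/2 DKO adenomas, with a log2 difference of -3.38 (10.4-fold, limma adjusted p = 0.00395, 3 of 3 arrays below 5 of 5).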

How the results depend on the processing

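Over 39 Reg values followed under the alternatives, 743 of 744 recomputed values kept their direction. The exception was Reg2 in Bcl9/B9l DKO against ApcMin adenomas, at -0.39 without the arrays with acinar genes. The number of Reg probes that passed changed as follows, and the cause was not tested. Against wt crypts, the 2 of ApcMin adenomas became 1 without the detection filter and 1 with all 7 groups in 1 fit, and 1 to 2 with an array left out. For Pygo1/2 DKO against ApcMin adenomas, 0 became 1 with the batch 2 arrays added or with all 7 groups in 1 fit, and 0 to 1 with an array left out. For Bcl9/B9l DKO against ApcMin adenomas, 2 became 1 without the filter, 4 with all 7 groups, 0 without the arrays with acinar genes and 1 to 3 with an array left out. For Bcl9/B9l against Pygo1/2 DKO adenomas, 1 became 0 with the deposited values, without the filter and without the arrays with acinar genes, and 0 to 1 with an array left out. For QKO against Bcl9/B9l DKO it was 0 to 1 with an array left out. For Pygo1/2 DKO crypts, 0 became 1 with the deposited values, with pooled controls and with quantile normalisation without background correction. Adenomas against crypts gave 1 to 2 with an array left out in Pygo1/2 DKO and also 1 to 2 in Bcl9/B9l DKO, where 3 became 1 with the deposited values (second Reg3b probe -1.49, limma adjusted p = 0.0463), without the filter and without the arrays with acinar genes.

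The lowest correlation of deviations between same-numbered arrays was at most 0.04 in each comparison, and below 0 in all but the DKO crypt comparisons. In Pygo1/2 and Bcl9/B9l DKO crypts against villin.Cre crypts, all 3 pairs were above 0. Their mean was 0.25 in each, against -0.12 for arrays of different numbers. The numbers were not taken to pair samples, and whether they pair the crypts is not known. With the replicate number as a block, 0 of the 2 Reg probes passed in Bcl9/B9l DKO against ApcMin adenomas (second Reg3b probe -3.54, adjusted p = 0.0141, Reg3g -2.57, adjusted p = 0.0594) and 1 of 3 in Bcl9/B9l DKO adenomas against crypts. The block moved the probes passing from 288 to 0 in the former, from 22 to 9 for Pygo1/2 DKO adenomas, 124 to 50 for the DKO adenomas against each other, 62 to 7 and 519 to 8 for QKO against Bcl9/B9l and Pygo1/2 DKO, 6676 to 3520 for ApcMin adenomas against wt crypts, 7833 to 4802 for Pygo1/2 DKO adenomas against crypts and 86 to 142 for the Bcl9/B9l interaction. A block also takes residual degrees of freedom from each fit, and the part of that in these changes was not tested. No block could be fitted for QKO against ApcMin adenomas, which share no numbers. A slide block was not run, since the slide is not given in the column names. Only the arrays of the comparison were already normalised together for the QKO.

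Over all other alternatives, the numbers of probes passing moved in crypts as follows: 19 became 10 (no filter) to 874 (pooled controls) for Pygo1/2 DKO, 11 became 4 to 61 for Bcl9/B9l DKO, and 4 became 0 to 10 for villin.Cre. In adenomas, 22 became 11 to 212, 288 became 31 (without the arrays with acinar genes) to 1020 (all 7 groups), 124 became 30 to 512, 796 fell to 276 without the filter, and 62 fell to 37 for QKO against Bcl9/B9l DKO with quantile normalisation without background correction. For Bcl9/B9l DKO adenomas against crypts, 3955 became 777 to 6643, and the interactions went from 8 to 16 (Pygo1/2, deposited values) and from 86 to 49 (Bcl9/B9l, no filter). Reg2, Reg3d and Reg4 lay at or below background in most arrays, which limits their folds to bounds.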
